A study of Mus musculus with 24 samples.

Results

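Untreated dendritic cells of 2 mouse strains, PWD and C57, were compared gene by gene. The comparison takes 8 of the 24 libraries of the series, 4 named PWD_Untreated and 4 named C57_Untreated, chosen by their labels and by no measured value. PWD is a wild-derived inbred strain of the subspecies Mus musculus musculus. C57 and B6 are the names of the other strains in the labels, and no label says how they differ. Bone marrow of individual mice was cultured for 7 days with 20 ng/ml of the growth factor GM-CSF, with 4 biological replicates per strain, and untreated cells received no lipopolysaccharide (LPS). The labels give neither sex nor age, and do not say whether untreated and LPS-treated cells of the same number came from the same mouse. Untreated B6 cells (4 libraries) are shown beside the pair as a level, and PWD and C57 cells given LPS at 10 ng/ml for 6 hours (4 libraries each) enter 1 paragraph near the end. All values are TPM, transcript abundances scaled per length and to the same total in each library.

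GM-CSF drives bone marrow precursors towards dendritic cells, which take up antigen, display it on MHC molecules and call in other leukocytes with chemokines. Such cultures also hold macrophages and granulocytes, so that a bulk library is an average over cell types. In this setting fewer cells of a type and less RNA per cell cannot be told apart. Even without infection, cells of this kind keep a low output of type I interferon, which acts through its receptor and transcription factors such as Stat2 and Irf9 on a large set of antiviral genes.

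Of 13246 genes tested, 6126 were called at a limma adjusted p under 0.05 (46.2%): 2656 were higher in PWD (20.1%) and 3470 lower (26.2%). The median difference of all genes tested was -0.04 on the log2 scale of TPM + 1, on which all differences are given. Among the called genes 1797 differed by 1 or more (13.6% of genes tested), 926 higher (6.99%) and 871 lower (6.58%), and in 5085 the 4 PWD libraries did not overlap the 4 C57 libraries (38.4% of genes tested). Because almost every second gene was called, the count for any group of genes is read against these shares.

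The 4 PWD libraries fell into pairs. Non-coding structural RNA (mitochondrial rRNA and the RNA of signal recognition particle, 7SK, RNase P and RNase MRP) held 40.3% to 41.9% of all TPM in PWD replicates 1 and 2, 28.8% to 29.3% in 3 and 4, and 33.8% to 35.8% in the C57 libraries. Between these pairs 6375 genes differed within PWD and 17 within C57 (48.1% and 0.128% of genes tested, limma adjusted p under 0.05), and the strain difference itself differed between the pairs for 3866 genes (29.2%). The female-expressed RNA Xist stood at 62.5 to 104 TPM in replicates 3 and 4 of both strains and at 0.0145 TPM or less in 1 and 2. The Y-linked gene Ddx3y stood at 29.6 to 31.2 TPM in 1 and 2 and at 0.0337 TPM or less in 3 and 4. By these RNAs replicates 1 and 2 read as male and 3 and 4 as female, so each pair alone holds 1 sex. With replicates 1 and 2 alone 1724 genes were higher and 4719 lower, and with 3 and 4 alone 3565 were higher and 1982 lower. Where a pair alone moved a count of a gene group by more than 1.5 times, that count is given too. The part of sex or structural RNA in the results was not tested.

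The interferon-stimulated genes listed here were lower in PWD almost without exception. The list was chosen with earlier results of these data known, and Gbp2b and Ifi202b, interferon-inducible genes outside it, were higher (given below). All 50 genes of the list passed the filter on low values, 48 were lower in PWD and 1 was higher, with a median of -2.03. Their summed level was 519 to 705 TPM in the PWD libraries, 2281 to 3145 in C57 and 2810 to 4093 in B6. Ifi27l2a, an interferon-induced membrane protein of mitochondria, was listed at 0 in all 4 PWD libraries and stood at 127, 131, 103 and 98.6 TPM in C57. Its gene lies at chr12:103442167-103443680 (mm10, GENCODE M21). The relatives Ifi27 and Ifi27l2a summed to 5.56 TPM in PWD and 168 TPM in C57 on average, and Ifi27 alone was lower as well (-3.05).

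The Ifit genes encode proteins that bind viral RNA. Ifit1 was at 4.04, 3.62, 4.5 and 5.17 TPM in PWD and at 84.3, 143, 75.8 and 68.4 TPM in C57. The groups lie far apart, and the log2 difference was -4.09 (SE 0.16, limma adjusted p = 1.5e-16). Ifit3 was at 0.265 to 0.757 TPM in PWD and 28.7 to 55.4 TPM in C57, a log2 difference of -4.55 (SE 0.16). Its near-identical neighbour Ifit3b was also lower (1.35 against 6.17 TPM on average), and the sum of both was 1.93 ± 0.582 TPM against 43.2 ± 14.5 TPM (SD, n = 4 each). How reads were shared between them is uncertain. Oas1a, an enzyme that makes the activator of RNase L, was at 1.02 to 1.82 TPM against 40.4 to 46.7 TPM (log2 difference -4.20, SE 0.13).

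Regulators of the pathway were among these genes. Irf7, the transcription factor that amplifies interferon genes, was at 2.28 to 2.84 TPM in PWD and 36.7 to 52.8 TPM in C57, a log2 difference of -3.59 (SE 0.12, limma adjusted p = 1.8e-19). Usp18, which removes Isg15 from proteins and shuts off the interferon receptor, was at 2.36, 2.62, 4.22 and 4.83 TPM against 68.5, 87.3, 56.0 and 64.6 TPM (-3.98, SE 0.15). Isg15 itself, a ubiquitin-like protein, was at 9.14 to 14.1 TPM against 75.9 to 125 TPM. Rsad2, known as viperin, fell by 3.84 and Mx1, a dynamin-like antiviral GTPase, by 1.97. The signal carriers Stat2 and Irf9 were less far apart, with differences of -1.64 and -1.63. The smallest called falls on the list were those of Samhd1, an enzyme that breaks down nucleotides (91.8 to 132 against 171 to 195 TPM, -0.72), and Tor3a (-0.63). The gene that was higher, Ifi44l, was at low values, 0.258 to 0.733 TPM in PWD and listed at 0 in C57, and was not called with replicates 1 and 2 alone (adjusted p = 0.064); its relative Ifi44 was not called (-0.30).

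C57 replicate 2 held the highest C57 value for most genes named here, as the plot of interferon-stimulated genes by library shows. Without that library the list counts were again 48 lower and 1 higher, with a median of -1.93. The median was -2.42 with replicates 1 and 2 alone (49 lower) and -1.79 with 3 and 4 alone (48 lower, 1 higher).

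**Figure D1:**
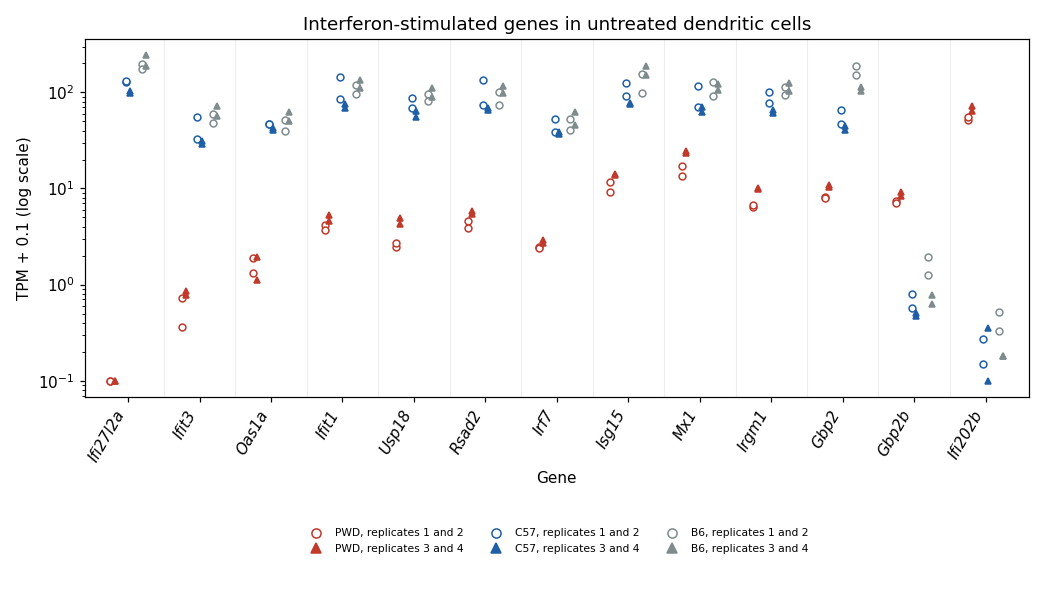
TPM + 0.1 on a log axis for 13 interferon-related genes, 1 point per untreated library. Red marks PWD, blue C57 and grey B6, with open circles for replicates 1 and 2 and filled triangles for 3 and 4. For the first 11 genes every PWD point lies below every C57 point (Ifit1 4.04, 3.62, 4.5 and 5.17 TPM in PWD), and for Gbp2b and Ifi202b every PWD point lies above.

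Interferon-activated Stat and Irf complexes recognise a short DNA element, and the reference sequence was read to show which of these genes have it close to the start. A motif of GAAA, any 2 bases and GAAA again was searched on both strands, with overlapping matches allowed, in the 250 bases before each RefSeq gene start (GRCm38.p6, the sequence of the C57BL/6J reference and not of PWD). It stood in 340 of the 9419 tested genes with a RefSeq window (3.61%), in 16 of the 37 interferon-stimulated genes with a window, in 10 of 11 interferon-inducible GTPases, in 3 of 20 MHC class I genes and in 0 of 17 genes of dendritic cell maturation. A match describes the letters and is not a measured binding site. Shown are the windows of the genes with a match and the largest falls, 3 interferon-stimulated genes and 3 interferon-inducible GTPases, as the strand of the gene from 5′ to 3′, ending before the gene start, with matches in capitals (a match to the other strand reads TTTC, any 2 bases and TTTC).
Ifit3: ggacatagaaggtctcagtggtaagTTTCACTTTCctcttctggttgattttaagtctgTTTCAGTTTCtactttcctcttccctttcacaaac
Oas1a: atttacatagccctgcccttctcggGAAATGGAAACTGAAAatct
Ifit1: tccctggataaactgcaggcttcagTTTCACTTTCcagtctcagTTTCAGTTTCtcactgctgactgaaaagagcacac
Irgm1: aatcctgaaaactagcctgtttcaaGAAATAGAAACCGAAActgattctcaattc
Tgtp2: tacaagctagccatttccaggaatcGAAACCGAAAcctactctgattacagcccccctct
Tgtp1: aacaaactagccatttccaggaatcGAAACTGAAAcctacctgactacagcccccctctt
The window of Ifit3 lies at chr19:34583348-34583441 (plus strand) and that of Ifit1 at chr19:34640760-34640838 (plus strand). That of Oas1a lies at chr5:120907526-120907570 (minus strand), that of Irgm1 at chr11:48871421-48871475, that of Tgtp2 at chr11:49064248-49064307 and that of Tgtp1 at chr11:48992289-48992348, all on the minus strand. Ifit3, Oas1a, Ifit1 and Irgm1 hold 2 matches each in these stretches, and Tgtp1 and Tgtp2 hold 1. The window of Ifit3b holds the same letters as that of Ifit3.

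The guanylate-binding proteins (GBP) and immunity-related GTPases (IRG) attack the vacuoles of intracellular microbes and are induced by interferon. Of 17 tested members of 18 listed, 13 were lower in PWD and 2 higher, with a median of -1.53. Irgm1 was at 6.35, 6.58, 9.76 and 9.91 TPM in PWD and 77.5, 101, 65.1 and 61.4 TPM in C57 (-3.07, SE 0.15, limma adjusted p = 1.2e-15). Ifi47 was at 3.74 to 5.72 TPM against 45.4 to 71.3 TPM (-3.26), and Gbp2 at 7.83 to 10.7 against 40.6 to 64.8 TPM (-2.29). Tgtp1 and Tgtp2, near copies on chromosome 11, were both lower, and their sum was 2.42 ± 0.958 TPM in PWD and 30.5 ± 12.3 TPM in C57 (SD, n = 4 each). The members that went the other way were Gbp2b, at 7.04 to 9.14 TPM against 0.373 to 0.689 TPM (2.59, SE 0.17), and Gbp4, whose libraries overlapped (6.25 to 11.9 against 2.79 to 7.14 TPM, 0.81) and which was not called with replicates 1 and 2 alone.

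The receptors and upstream factors on a separate list moved less than the interferon-stimulated genes. The contrast depends on how the lists were drawn. The regulators Irf7, Usp18, Stat2 and Irf9, given above, were counted with the interferon-stimulated genes and were clearly lower. Of 20 tested (23 listed), 11 were lower, none was higher and the median was -0.28. Ifnb1, which encodes interferon beta, was at 0.111 TPM in 1 PWD library and listed at 0 in the other 3, against 0.267, 1.89, 0.688 and 0.274 TPM in C57 (-0.71, limma adjusted p = 0.0094). These levels are close to 0, and the call was lost with each pair of replicates alone (adjusted p = 0.079 and 0.11) and without C57 replicate 2 (adjusted p = 0.064). Irf1 was at 14.7 to 25.7 against 39.7 to 52.1 TPM (-1.08), Socs1, an inhibitor of Jak kinases, at 8.24 to 13 against 22.6 to 29.8 TPM (-1.14), and the kinase Tbk1 at 28.7 to 41.9 against 57.7 to 61.1 TPM (-0.78). The receptor chain Ifnar1 and the kinases Jak1 and Tyk2 were not called (-0.05, 0.02 and -0.10). The counts depended on the pair: 17 were lower with replicates 1 and 2 alone, and 5 lower and 2 higher with 3 and 4 alone.

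**Figure D2:**
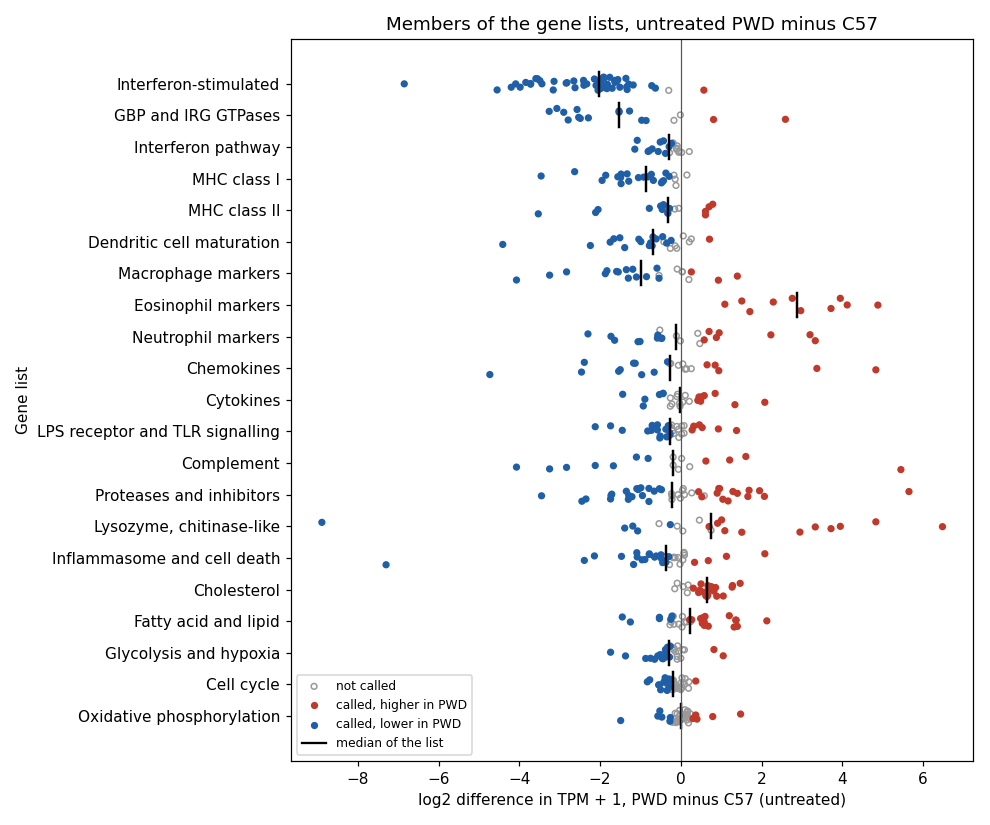
Differences in log2(TPM + 1), PWD minus C57, for every tested member of 21 gene lists (1 point per gene, spread vertically for sight). Red points are called higher, blue points called lower, open grey points not called, and the black bar is the list's median (-2.03 for interferon-stimulated genes, 2.87 for eosinophil markers, 0.65 for cholesterol genes).

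MHC class I, which shows peptides from inside the cell to CD8 T cells, was lower as a group. Of 24 genes tested 20 were lower and none higher, with a median of -0.87, and with replicates 3 and 4 alone 15 were lower and 1 higher. H2-K1 was at 174 to 226 TPM in PWD and 448 to 551 TPM in C57 (-1.33), and H2-D1 at 150 to 196 against 498 to 508 TPM (-1.56, SE 0.09). The peptide pump Tap1 was at 13.2 to 17.5 against 54.9 to 67.0 TPM (-1.95, SE 0.10, limma adjusted p = 4e-15), and the immunoproteasome subunit Psmb8 at 60.5 to 72.8 against 133 to 152 TPM (-1.05). The shared light chain B2m differed least among the genes named here, at 1085 to 1463 against 1576 to 1634 TPM (-0.37), and was not called with replicates 3 and 4 alone (adjusted p = 0.082). H2-T22, H2-Q6 and H2-Q7 fell by 3.46, 2.63 and 1.86. They belong to families of near-identical genes, so how reads were shared among them is uncertain. The chains H2-K1 and H2-D1 have the same limit. How many PWD reads of these genes could not be placed on the reference was not tested.

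MHC class II genes, which show peptides to CD4 T cells, split by gene. H2-Eb1, the beta chain of the H2-E molecule, was at 28.8, 33.2, 59.1 and 54.2 TPM in PWD and 489, 627, 436 and 441 TPM in C57 (-3.53, SE 0.19, limma adjusted p = 2.1e-13). H2-Oa and H2-Ob, chains of a modulator of peptide loading, fell by 2.11 and 2.05 at low levels (at most 2.06 TPM in PWD and 11.9 TPM in C57). H2-Aa, the alpha chain of H2-A, was instead higher: 788, 876, 1409 and 1382 TPM against 630, 797, 538 and 551 TPM (0.79, SE 0.17, limma adjusted p = 0.00042). Here the groups overlapped, and with replicates 1 and 2 alone the call was lost (0.23, adjusted p = 0.27). H2-Ab1, the invariant chain Cd74 and the master regulator Ciita were also called higher (0.70, 0.61 and 0.61). The libraries overlapped for Cd74 and Ciita and not for H2-Ab1, and none of the 3 was called with replicates 1 and 2 alone (adjusted p = 0.23, 0.51 and 0.64). In total 4 of 17 tested members of 20 listed were higher and 10 lower (median -0.33). With replicates 1 and 2 alone it was 0 higher and 12 lower, and with 3 and 4 alone 5 and 5. B6 cells stood above both, with 1894 TPM of H2-Aa and 1463 TPM of H2-Eb1 on average. As for class I, how many PWD reads of these genes could not be placed on the reference was not tested.

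Genes that mark mature, migrating dendritic cells were mostly lower in PWD: 17 of 25 lower and 1 higher, median -0.69. Tnfrsf9, the co-stimulatory receptor 4-1BB, was at 0.891, 0.787, 1.61 and 2.97 TPM against 48.7, 74.4, 48.2 and 38.2 TPM (-4.41, SE 0.21, limma adjusted p = 5.5e-14). Ccr7, the receptor that guides dendritic cells to lymph nodes, was at 9.30 to 16.2 TPM against 35.4 to 54.2 TPM (-1.66). Cd86 and Cd40, ligand and receptor in T cell activation, were lower by smaller steps (-0.78 and -0.75; Cd40 with replicates 3 and 4 alone had an adjusted p of 0.054), while Cd80 and Cd83 were not called (-0.26 and -0.14). Ccl5 was at 4.98 to 9.40 against 23.7 to 44.8 TPM (-2.24). The member that was higher was Ccl17, a chemokine for T helper cells, at 1991 to 3638 against 1425 to 2204 TPM (0.71), with overlapping libraries and no call with replicates 1 and 2 alone (adjusted p = 0.43). With replicates 3 and 4 alone 9 members were lower and 4 higher.

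Markers of dendritic cells themselves did not go one way. Of 19 tested (22 listed) 3 were higher and 10 lower. Itgax, which encodes CD11c, and the transcription factors Zbtb46 and Irf4 were not called (0.02, 0.14 and 0.17), which does not show equal levels. Itgax was at 236 to 402 TPM in PWD and 302 to 317 TPM in C57. Irf4 was at 41.3 to 71.6 against 48.7 to 50.2 TPM, so RNA of Itgax and Irf4 was present in both strains. Irf8, the factor of the cross-presenting lineage, was lower at 9.98 to 14 against 28.3 to 35.5 TPM (-1.34), and Ly75, the antigen uptake receptor DEC-205, was higher at 35.4 to 43.1 against 13.7 to 16.7 TPM (1.33). Flt3, Xcr1 and Dnase1l3 did not pass the filter. With replicates 3 and 4 alone 7 were higher and 8 lower.

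Macrophage and monocyte markers were lower in 14 of 22 tested genes and higher in 3 (24 listed, median -0.98). The strongest were the 3 chains of C1q, the first component of complement, which lie side by side on chromosome 4. C1qb was at 9.51, 9.62, 14 and 14.5 TPM in PWD and 221, 268, 171 and 199 TPM in C57 (-4.07, SE 0.13, limma adjusted p = 7.7e-20). C1qa fell by 2.83 and C1qc by 3.25. B6 cells held still more, 543 TPM of C1qb on average. The monocyte genes Ly6c2 and Ccr2 were at 56.9 to 97.2 against 259 to 289 TPM (-1.83) and 52.5 to 79.8 against 192 to 224 TPM (-1.55). Lyz2, the main lysozyme of macrophages, was at 4133 to 6145 against 10964 to 12313 TPM (-1.19), and the M-CSF receptor Csf1r at 159 to 218 against 273 to 302 TPM (-0.59). Cd14, the LPS co-receptor, was higher (0.93), as were Apoe (1.40) and Cd68 (0.26).

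Eosinophil genes were higher without exception among the 10 tested of 11 listed, with no overlap of libraries in any of the 10 and a median of 2.87. Their sum was 1726 to 2123 TPM in PWD, 461 to 623 in C57 and 114 to 243 in B6. Prg2, the major basic protein of eosinophil granules, was at 166, 141, 74.3 and 137 TPM against 3.79, 1.09, 3.08 and 6.96 TPM (4.88, SE 0.46, limma adjusted p = 2.8e-08). Epx, eosinophil peroxidase, was at 18.3 to 33.4 against 0.355 to 0.787 TPM (4.12), and Alox15, a lipoxygenase, at 27.3 to 57.7 against 0.999 to 3.31 TPM (3.95). The granule ribonucleases Ear1, Ear2 and Ear6 were all higher (3.72, 1.09 and 1.51), and the sum over the Ear family was 1054 ± 107 TPM in PWD and 441 ± 59.7 TPM in C57 (SD, n = 4 each). Ccr3, the eotaxin receptor, was at 4.25, 4.94, 9.77 and 10.8 TPM against 0.192, 0.448, 0.468 and 1.72 TPM (2.29), and Siglecf, a surface marker of eosinophils, at 22.9 to 39.7 against 8.29 to 9.75 TPM (1.71). Ccl24, an eotaxin made by other cells, was higher too, at 39.9 to 71.9 against 0.760 to 1.89 TPM (4.83).

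Neutrophil genes were divided, 7 higher and 9 lower of 21 tested (22 listed), and 6 and 6 with replicates 1 and 2 alone. Camp, the cathelicidin of secondary granules, was at 31.4, 32.9, 47.5 and 50.6 TPM against 4.60, 0.932, 4.20 and 5.80 TPM (3.20), and Cebpe, the factor that drives such granule genes, at 25.5 to 45.1 against 5.01 to 7.83 TPM (2.23). Chil1 was higher by 3.33. S100a8, a subunit of calprotectin, was lower, at 275 to 432 against 1288 to 2085 TPM (-2.30), while its partner S100a9 was not called (1311 to 2243 against 913 to 1568 TPM, 0.47). Mmp8 and Ngp fell by 1.73 and 1.64.

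**Figure D3:**
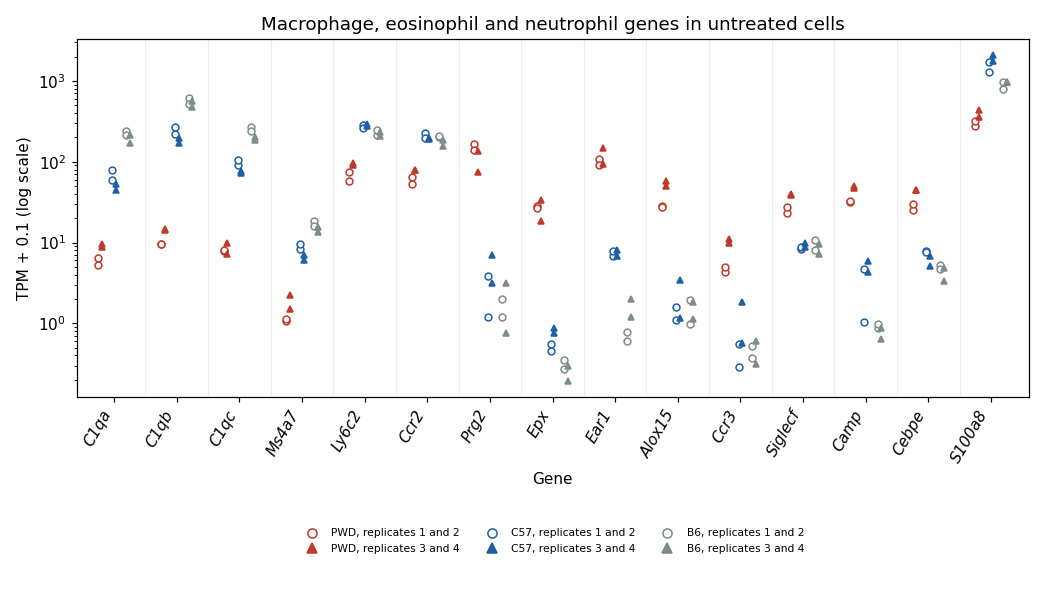
TPM + 0.1 on a log axis for 15 macrophage, eosinophil and neutrophil genes, 1 point per untreated library, in the colours and symbols of the plot of interferon-stimulated genes. The 6 macrophage and monocyte genes on the left are lower in every PWD library than in any C57 library (C1qb 9.51 to 14.5 against 171 to 268 TPM), and the 6 eosinophil genes that follow are higher (Prg2 74.3 to 166 against 1.09 to 6.96 TPM). The macrophage and monocyte genes shown are a selection. Of 22 tested, 14 were lower, 5 not called and 3 higher, and the higher ones (Cd14, Apoe and Cd68) are not plotted.

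Markers of other cells that marrow cultures can hold were also read. The 8 tested of 14 genes for B cells and plasmacytoid dendritic cells were all lower in PWD (summed 35.1 to 46.7 against 111 to 127 TPM). Most of both sums was Bst2, at 28.7 to 37.9 against 73.4 to 89.0 TPM, which is also among the interferon-stimulated genes. Cd79b, part of the B cell receptor, was at 0.122 TPM or less in PWD and 2.00 to 5.18 TPM in C57. Of 8 mast cell and basophil genes tested of 15 listed (summed 20.0 to 35.5 against 20.4 to 42.1 TPM), 5 were lower and 1 higher. The counts were 3 and 1 with replicates 1 and 2 alone, and 5 and 2 with 3 and 4 alone. Mcpt4, Tpsb2 and Cma1 were below 0.1 TPM in all 8 libraries. Of 14 T and NK cell genes (summed 29.0 to 42.8 against 101 to 141 TPM) 3 passed the filter, with Il7r lower (-1.75), Lck lower (-1.05) and Klrb1c higher (1.13), and Cd3e, Ncr1 and Gzma were below 0.1 TPM throughout. Of 11 stromal and endothelial genes tested (15 listed, summed 196 to 295 against 213 to 246 TPM) 7 were higher and 2 lower (4 and 2 with replicates 1 and 2 alone). Col1a2, a collagen chain, was at 4.68 against 0.930 TPM on average (1.58), while Vwf was at 0.365 to 1.33 against 24.6 to 32.6 TPM (-4.18). Of 9 red cell and megakaryocyte genes tested (14 listed, summed 162 to 235 against 237 to 335 TPM) 3 were higher and 2 lower (2 and 2 with replicates 1 and 2 alone, 3 and 1 with 3 and 4 alone), among them Gata1 (1.34) and Pf4 (-1.54). The part of these cells in the results was not tested.

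Cytokine genes showed no common direction, with 8 higher and 6 lower of 24 tested (25 listed), and 5 and 7 with replicates 1 and 2 alone. Il18, which is matured by caspase-1, was at 22.5, 27.3, 30.1 and 31.8 TPM against 4.65, 5.75, 6.37 and 6.60 TPM (2.08, SE 0.17, limma adjusted p = 3.8e-11). Il1b was at 325 to 489 against 217 to 323 TPM (0.58), and with replicates 1 and 2 alone it was not called (adjusted p = 0.091). Tnf was lower, at 79.8 to 111 against 123 to 132 TPM (-0.44), and Il6 at 4.42 to 6.35 against 8.77 to 15.4 TPM (-0.89). Il12b was not called (1.75 to 2.99 against 2.13 to 3.22 TPM), and Il10 was at 0.0662 TPM in 1 C57 library and listed at 0 in the other 7. Il23a was higher at low level, 1.73 to 3.17 against 0.130 to 0.521 TPM (1.34).

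Among chemokines 10 were lower and 5 higher of 22 tested (23 listed). Cxcl10, which interferon induces and which draws T cells, was at 5.39, 4.20, 6.20 and 7.27 TPM against 157, 265, 159 and 146 TPM (-4.73, SE 0.17, limma adjusted p = 2.2e-17). The monocyte attractants Ccl2, Ccl7 and Ccl12, neighbours on chromosome 11, were lower by 1.5, 2.39 and 2.46. For Ccl7 the libraries read 56.9, 73.9, 74.2 and 79.7 TPM against 383, 450, 332 and 346 TPM, while the B6 mean was 56.9 TPM, so for this gene C57 stood apart from both. The same held for Ccl2 (404 TPM in PWD, 1139 in C57 and 317 in B6 on average). It did not hold for Ccl12 (0.427, 6.79 and 13.7 TPM). Cxcl14 was at 26.2 to 38.4 against 1.54 to 3.21 TPM (3.37), and the neutrophil attractant Cxcl3 at 1037 to 1450 against 584 to 833 TPM (0.94). Ccl3, Cxcl2 and Ccl9 were not called (-0.06, 0.05 and 0.14). Of 14 chemokine receptors tested (20 listed) 7 were lower and 3 higher. Apart from Ccr2 and Ccr3, Cxcr2 was higher (0.95) and the anaphylatoxin receptor C3ar1 lower (-1.02). With replicates 3 and 4 alone 3 were lower.

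The LPS receptor was lower in PWD by a small step. Tlr4 was at 81.1, 81.4, 96.7 and 96.1 TPM in PWD and 139, 138, 134 and 122 TPM in C57 (-0.58, SE 0.10, limma adjusted p = 2.8e-05). Its partner Ly96, or MD-2, was at 10.3 to 11.2 against 14.7 to 17.7 TPM (-0.58). Cd14 moved the other way, at 410, 368, 488 and 492 against 210, 267, 227 and 214 TPM (0.93, SE 0.10). Of 33 genes of Toll-like receptor signalling tested (35 listed) 15 were lower and 6 higher, with 21 and 3 for replicates 1 and 2 alone and 10 and 8 for 3 and 4 alone. The nucleic acid sensors Tlr3 (0.269 to 0.495 against 3.97 to 5.90 TPM, -2.12) and Tlr9 (2.95 to 4.23 against 8.26 to 15.0 TPM, -1.45) were lower. So was Ly86, or MD-1, the partner of Cd180 (-1.74). Tlr1 was higher, at 10.0 to 16 against 4.19 to 4.80 TPM (1.38). Tlr2, Nfkb1 and Rela were not called.

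Surface receptors of myeloid cells differed in both directions, often between neighbours of 1 gene cluster. Among C-type lectins, which bind sugars of microbes, 13 were lower and 5 higher of 25 tested (33 listed). Clec12a was at 3.29, 3.77, 6.92 and 5.10 against 39.8, 40.5, 43.5 and 41.9 TPM (-2.92, SE 0.18), and Clec4n, or Dectin-2, at 666 to 1053 against 2031 to 2244 TPM (-1.32). Clec7a, or Dectin-1, was not called (971 to 1389 against 932 to 1024 TPM). Of 36 Fc and paired receptors tested (39 listed) 15 were lower and 10 higher. Fcgr4, an activating IgG receptor, was at 38.3 to 48.2 against 6.62 to 7.79 TPM (2.43), and the inhibitory Fcgr2b at 374 to 561 against 197 to 222 TPM (1.13), while Fcgr1 (-1.35) and Fcgr3 (-0.47, not called with replicates 3 and 4 alone, adjusted p = 0.096) were lower. Siglecg was at 29.0 to 41.5 against 3.06 to 3.94 TPM (2.97).

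In the Cd300 cluster on chromosome 11 near-identical genes differed in opposite directions. Cd300ld2 (chr11:115010335-115016193, mm10) was at 16, 17.5, 18.3 and 19.2 TPM in PWD and listed at 0 in all C57 libraries, and Cd300ld5 at 6.36 to 8.02 TPM and 0. Cd300c2 and Cd300ld were lower in PWD (-3.05 and -2.17). Summed over the Cd300ld genes the level was 34.6 ± 4.19 TPM in PWD and 24.7 ± 2.29 TPM in C57 (SD, n = 4 each), a smaller difference than those of its members. How reads were shared among them is uncertain.

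Scavenger and efferocytosis receptors were lower in 10 and higher in 6 of 20 tested (24 listed). Mertk, which clears dying cells, was at 10.8 to 13.7 against 29.5 to 34.1 TPM (-1.30), and Marco, which binds bacteria, at 52.2 to 72.6 against 23.5 to 36.9 TPM (1.02), a call that was lost without C57 replicate 2 (0.89, limma adjusted p = 0.052). Complement genes were lower in 7 and higher in 4 of 16 (22 listed). Besides C1q, the protease C1ra was lower (-2.12).

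Among integrins and adhesion genes 14 were lower and 8 higher of 33 tested (37 listed), with 18 and 4 for replicates 1 and 2 alone. Itgad was at 11.1 to 18 against 0.312 TPM or less (3.85), and Itgb3 at 12.9 to 17.3 against 5.19 to 6.12 TPM (1.27). Itga1 (-2.34), Itgb7 (-2.17) and Pecam1 (-2.24) were lower. Thbs1, a secreted adhesion protein, was at 115 to 172 against 803 to 1242 TPM (-2.76). Of 44 proteases and inhibitors 20 were lower and 14 higher. The matrix metalloproteinases Mmp13, at 5.83 to 11.1 against 86.8 to 123 TPM, and Mmp14, at 18.9 to 32.4 against 133 to 156 TPM, fell by 3.45 and 2.45, while the lysosomal protease Ctsd was higher at 4881 to 5973 against 2536 to 2929 TPM (0.94). Stefins, small inhibitors of cathepsins, were another family whose members differed more than its sum: Stfa1 was at 65.0 to 120 against 0.625 to 1.65 TPM (5.65), but the sum of 7 stefin genes was 187 ± 45.9 TPM in PWD and 197 ± 6.42 TPM in C57, and the libraries overlapped.

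Chitinase-like and lysozyme genes held the largest difference of all named genes. Chil3, also called Ym1, a secreted chitinase-like protein of alternatively activated cells (chr3:106147554-106167564, mm10), was at 0.362, 0.732, 1.27 and 1.43 TPM in PWD and 1055, 618, 1079 and 938 TPM in C57 (-8.89, SE 0.22, limma adjusted p = 4e-19). Its near copy Chil4 added nothing: Chil3 and Chil4 together gave 0.948 TPM in PWD on average. Lyz1 (chr10:117287797-117292868), the Paneth cell lysozyme, was at 198, 228, 332 and 289 against 1.75, 1.95, 2.14 and 1.70 TPM (6.48, SE 0.19). The sum with its neighbour Lyz2 was 5365 ± 1136 TPM against 11437 ± 614 TPM, lower in PWD. Of the list's 21 tested genes (25 listed) 11 were higher and 5 lower. Ear1, Alox15 and Ccl24, given above with the eosinophil genes, are among the higher ones. Retnla, a marker of alternative activation, was at 9.86 to 18.6 against 0.368 to 2.85 TPM (2.95), and Arg1 was not called (89.6 to 165 against 57.2 to 112 TPM, adjusted p = 0.06).

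Enzymes of arginine, itaconate and eicosanoid metabolism were lower in 12 and higher in 5 of 26 tested (29 listed). Ass1, which remakes arginine, was at 127 to 192 against 556 to 639 TPM (-1.92, SE 0.12, limma adjusted p = 1.6e-13), and Acod1, which makes itaconate, at 113 to 182 against 362 to 499 TPM (-1.48). Nos2, the inducible nitric oxide synthase, was near 0 in both (0.105 to 0.234 against 0.979 to 1.64 TPM, -1.0). The arginine importer Slc7a2 was higher, at 444 to 501 against 173 to 208 TPM (1.30).

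Genes of the inflammasome and of cell death were lower in 18 and higher in 4 of 33 tested (34 listed, median -0.37). Casp1 was at 15.8 to 25 against 43.1 to 47.0 TPM (-1.17), and its adaptor Pycard, or ASC, at 76.7 to 107 against 178 to 201 TPM (-1.09), whereas the sensor Nlrp3 was not called (47.8 to 62.6 against 48.6 to 55.4 TPM). Naip2, a sensor of bacterial secretion system proteins, was at 8.70 to 11.5 against 54.7 to 59.5 TPM (-2.39), and the Naip family summed to 21.4 ± 3.17 TPM against 78.7 ± 1.02 TPM. Bcl2a1a, a survival gene with near-identical copies, was listed at 0 in 2 PWD libraries and at 0.526 and 0.422 TPM in the others, against 189 to 192 TPM in C57 (-7.30). Bcl2a1b and Bcl2a1d stayed high (439 against 537 and 303 against 283 TPM on average), and the family sum was 743 ± 78.8 TPM against 1012 ± 32.2 TPM.

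Genes of cholesterol synthesis were higher as a group: 19 of 24 tested, none lower, median 0.65 (25 listed). Dhcr7, the last enzyme of 1 branch, was at 44.5, 47.0, 42.9 and 51.2 TPM against 17.7, 15.1, 15.9 and 15.7 TPM (1.47, SE 0.11, limma adjusted p = 1.3e-11). Mvd was at 62.1 to 76.3 against 25.8 to 28.1 TPM (1.27). The controlling factor Srebf2 was not called (0.06). The list's sum was 996 to 1225 TPM in PWD, 691 to 711 in C57 and 580 to 709 in B6. It was higher in both pairs, 15 genes with replicates 1 and 2 alone and 19 with 3 and 4 alone, with none lower.

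Fatty acid and lipid genes were higher in 17 and lower in 6 of 34 tested (35 listed, median 0.23). Scd1, the stearoyl-CoA desaturase, was at 39.7 to 50.5 against 8.72 to 10.4 TPM (2.13, SE 0.15). Pparg, at 34.5 to 49.5 against 13.3 to 17.9 TPM (1.32), and Nr1h3, the oxysterol receptor LXR alpha, at 26.4 to 29.9 against 10.2 to 13.1 TPM (1.20), are factors that control such genes. Apoe was at 16.8 to 35.4 against 6.86 to 9.85 TPM (1.40), far below the B6 mean of 91.0 TPM. With replicates 1 and 2 alone 13 were higher and 10 lower, and with 3 and 4 alone 19 and 3.

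Proliferation genes differed little. Of 36 cell cycle genes 12 were lower and 1 higher (median -0.19), led by Ccnb1, at 25.6 to 34.4 against 49.0 to 55.4 TPM (-0.83), and Pcna, at 103 to 152 against 204 to 215 TPM (-0.77). Both have annotated copies, and with the copies summed the differences were -0.57 for Ccnb1 and -0.26 for Pcna (limma adjusted p = 0.00027 and 0.018). The B6 mean of Ccnb1 was 28.8 TPM, beside 29.6 TPM in PWD and 53.1 TPM in C57. Mki67 was not called (-0.09), and with replicates 3 and 4 alone 7 were lower and none higher. Ribosome biogenesis genes were called least often, 4 higher and 2 lower of 26, under the background share, and median-of-ratios scaling gave 8 and 1 (3 and 4 with replicates 1 and 2 alone, 6 and 1 with 3 and 4 alone). Of 36 nuclear genes of oxidative phosphorylation 5 were higher and 7 lower, with 14 and 6 under median-of-ratios scaling and 9 and 5 with replicates 3 and 4 alone. Nnt, the mitochondrial transhydrogenase, was at 19.5, 21.9, 26.8 and 28.7 TPM against 8.53, 6.72, 8.18 and 8.41 TPM (1.48, SE 0.13), and the B6 mean was 5.10 TPM.

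Genes of glycolysis and hypoxia were lower in 16 and higher in 2 of 28 (median -0.30), with 9 and 3 for replicates 3 and 4 alone. Bnip3, a mitophagy receptor induced by hypoxia, was at 9 to 11.8 against 33.1 to 43.2 TPM (-1.74), with 14.1 TPM in B6 on average. The largest fall by level was Gapdh, at 783, 774, 1011 and 1013 TPM against 2239, 2270, 2363 and 2335 TPM (-1.37, SE 0.11). This gene has annotated copies in the genome whose summed level was 858 to 1033 TPM in PWD and 0.189 to 0.654 TPM in C57. With its copies summed into it the difference was -0.33 (limma adjusted p = 0.009).

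Other genes with annotated copies showed the same pattern of values. Symbols annotated as pseudogenes took 4.28% to 5.10% of TPM in PWD and 1.45% to 1.68% in C57. Among 92 genes whose annotated copies reached 5 TPM on average in either strain, the copies were higher in PWD for 78. Taken alone, 54 of these parent genes were called lower and 4 higher; with the copies added, 19 were called lower and 21 higher. This summing was chosen after the values were seen. Ftl1, the ferritin light chain, was at 2160 to 2417 TPM against 7889 to 8610 TPM alone (-1.84, limma adjusted p = 2.2e-18), and with its copies it did not pass the test (0.02, adjusted p = 0.82). Rps18 alone fell by 1.00, and its sum was 779 ± 44.1 TPM against 793 ± 9.02 TPM (SD, n = 4 each). For Rps26 the sign turned, from -1.96 alone to 1.09 with its copy. Eno1b, an intronless relative of the glycolytic gene Eno1, was at 188 to 255 against 8.03 to 10.3 TPM (4.43), and the sum of both was 824 ± 125 TPM against 862 ± 6.45 TPM, with overlapping libraries.

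**Figure D4:**
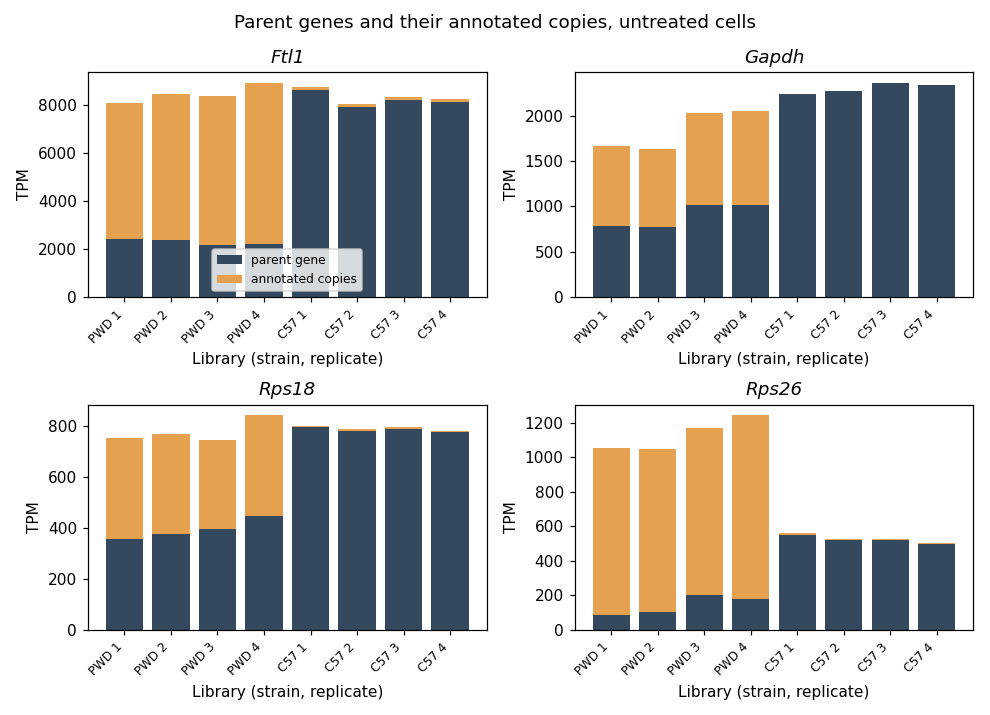
TPM of 4 genes in each of the 8 libraries, with the level of the parent gene (dark) and of its annotated copies (orange) stacked from 0. In PWD the copies of Ftl1 hold 5668 to 6696 TPM beside 2160 to 2417 TPM of the parent, and in C57 94.4 to 119 TPM beside 7889 to 8610 TPM. The stacked heights are alike for Ftl1 and Rps18. They are lower in PWD for Gapdh (1842 against 2302 TPM on average) and higher for Rps26 (1127 against 528 TPM).

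Antioxidant genes were lower in 15 and higher in 3 of 36 tested (38 listed), with 12 and 7 for replicates 3 and 4 alone. Mgst2, a membrane glutathione transferase, was at 3.35 to 5.68 against 38.4 to 42.2 TPM (-2.90, SE 0.14), and Gclm, the regulatory subunit of glutathione synthesis, at 121 to 183 against 355 to 379 TPM (-1.31). Nfe2l2, the factor that controls this group, was not called (-0.24). Gpx3, secreted glutathione peroxidase, was higher, at 60.8 to 75.6 against 19.9 to 27.8 TPM (1.42). Of 22 iron genes tested (25 listed) 5 were higher and 7 lower, with 8 and 6 both for replicates 3 and 4 alone and under median-of-ratios scaling. The heavy chain of ferritin, Fth1, was at 17266 to 18979 against 11093 to 11763 TPM (0.66), transferrin (Trf) at 424 to 644 against 172 to 219 TPM (1.44), and the iron exporter Slc40a1 at 7.40 to 13.9 against 20.7 to 24.3 TPM (-1.05). Stress response genes were lower in 12 and higher in 4 of 27 tested (28 listed), with 14 and 1 for replicates 1 and 2 alone and 5 and 5 for 3 and 4 alone. Asns, which makes asparagine, was at 4.94, 4.04, 13.3 and 8.10 against 16.8 to 19.4 TPM (-1.28) and not called with replicates 3 and 4 alone (adjusted p = 0.14), and Phgdh, the first enzyme of serine synthesis, at 57.9 to 72.6 against 22.2 to 31.6 TPM (1.27).

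The genes with the largest calls included many outside these groups. Ptx3, a secreted pentraxin that tags microbes, was at 0.749, 0.566, 1.05 and 1.24 TPM against 203, 249, 246 and 239 TPM (-6.96, SE 0.14, limma adjusted p = 1.5e-23). Klk1b11, a kallikrein-related protease, was at 0.145 TPM or less against 120 to 191 TPM (-7.14), and Klk1b26 of the same family went the other way (11.2 against 0.446 TPM on average), with a family sum of 14.6 ± 3.56 TPM against 194 ± 46.9 TPM. Cgnl1, a junction protein, was at 0.117 to 0.319 against 23.9 to 30.4 TPM (-4.54). On the other side Aqp3 (chr4:41092722-41098183), a channel for water and glycerol, was at 118, 152, 200 and 201 TPM against 1.08, 1.32, 1.06 and 0.818 TPM (6.32, SE 0.16, limma adjusted p = 3.3e-22). Cyp1b1, a cytochrome P450, was at 32.2 to 61.2 against 0.356 to 0.991 TPM (4.89), and Fbln5, an elastic fibre protein, at 18.1 to 20.9 against 0.208 TPM or less (4.25). Ifi202b, a DNA-binding member of the interferon-inducible Ifi200 family, was at 52.1 to 71.9 against 0.253 TPM or less (5.78), opposite to Ifi203, Ifi204 and Ifi205 of the interferon-stimulated list (-2.41, -1.98 and -3.44).

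Some of the largest differences sat in gene families with near-identical members and in RNA genes. The histone genes Hist1h4m and H2ac15 were below 5 TPM in every PWD library and at 185 to 592 TPM in C57, but the H4 family sum differed by -1.14 and the H2A family sum by -0.49. Srp54c was at 2.34 TPM or less against 30.9 to 37.2 TPM (-4.27), and the sum of the Srp54 genes was 39.7 ± 1.70 TPM against 130 ± 8.29 TPM. Hmga1b was higher by 4.27 and the sum with Hmga1 lower, 87.9 ± 4 TPM against 118 ± 5.10 TPM. Rprl3, an RNase P RNA gene, was at 166 to 213 TPM in PWD and listed at 0 in C57. Of the 13 mitochondrial messenger RNAs, a list chosen after the values were seen, 3 were called higher, 5 lower and 5 not. The mitochondrial gene mt-Co2 was at 784 to 1297 TPM against 62.0, 188, 0 and 65.3 TPM (5.06, SE 1.35, limma adjusted p = 0.0046), and it was not called with replicates 1 and 2 alone (adjusted p = 0.25) or in a fit of the 8 libraries only (adjusted p = 0.053).

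**Figure D5:**
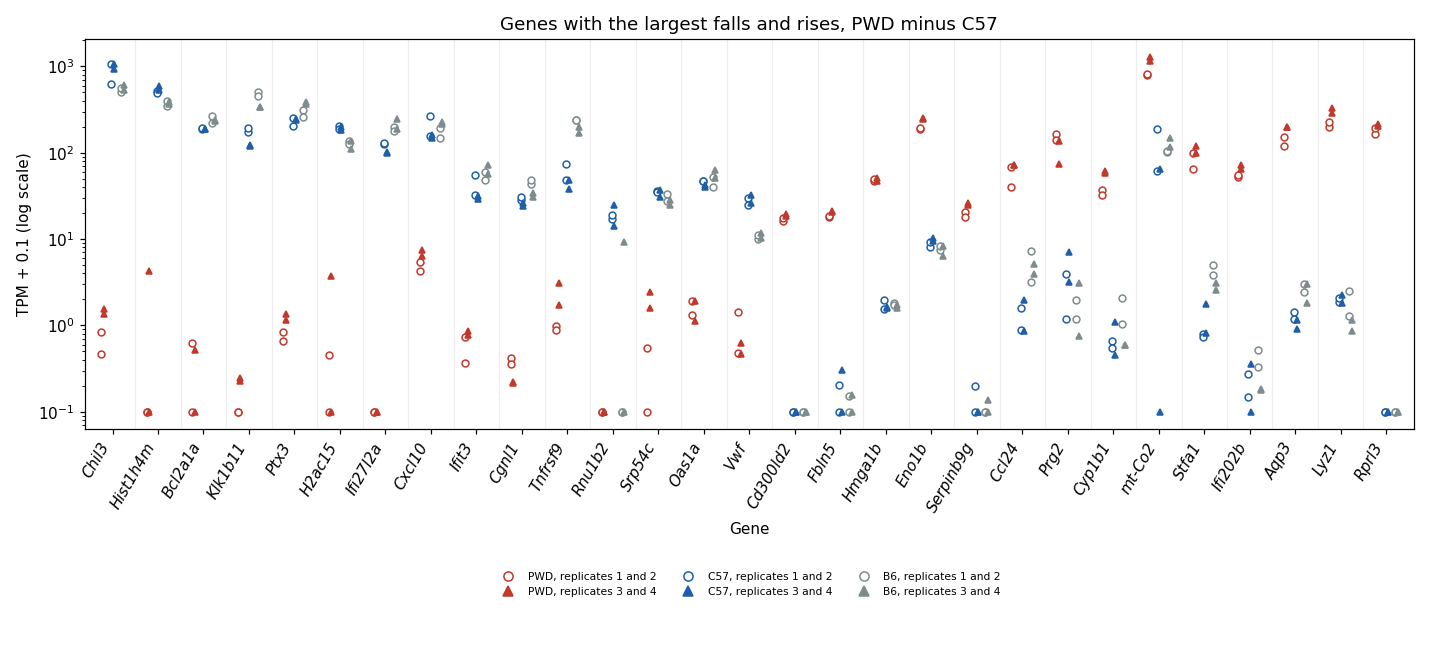
TPM + 0.1 on a log axis for the 15 named genes with the largest falls (left) and 14 of the 15 with the largest rises (right) in PWD against C57, 1 point per untreated library, in the colours and symbols of the plot of interferon-stimulated genes. B6 (grey) lies beside C57 (blue) for most of them, as for Chil3 (556 TPM on average in B6) and Aqp3 (2.48 TPM).

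A few symbols were found in 1 strain only. At 5 TPM or more in all 4 libraries of PWD and below 0.1 TPM in all 4 of C57 there were 45 symbols, 37 of them unnamed gene models or pseudogenes. The 8 named ones were Rprl3, Serpinb9g, Cd300ld2, Angpt4, Zfp990, Camk4, Cd300ld5 and Serpinb9f. Serpinb9g, a relative of the granzyme B inhibitor, was at 20.3, 17.7, 24.9 and 25.9 TPM and Angpt4, an angiopoietin, at 8.13 to 14.1 TPM. The reverse held for 11 symbols, 6 of them named: Ifi27l2a, Rnu1b2, Trim12a, Npy, Ifi206 and Clu. Trim12a, an antiviral E3 ligase, was at 15.1 to 18 TPM in C57 and 0.0510 TPM or less in PWD, and Npy, a neuropeptide, at 10.2 to 16.9 TPM and listed at 0. In B6 the mean was below 0.1 TPM for 32 of the 45 and 5 TPM or more for 9 of the 11. How far a symbol at 0 stands for a gene that PWD lacks or for reads that were not placed on the reference was not tested.

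The share of genes called was lowest on chromosome 11, which was noticed in these data and is given as a description. There 389 of 1043 genes were called (37.3%), against 42.1% to 50.6% on the other 19 chromosomes. Of calls of 1 or more the share on chromosome 11 was 9.30%, inside the range of the others (9.13% to 18.5%). Between 50 and 100 Mb, a window drawn from these values, 178 of 565 genes were called (31.5%), and in the rest of the chromosome 211 of 478 (44.1%), where 10 Mb bins ranged from 34.7% to 54.5%. In the comparison of C57 with B6, which shares the C57 libraries, 7.38% of genes on chromosome 11 were called with a difference of 1 or more, against 1.85% to 4.71% on the others. The cause was not tested.

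After LPS the pair differed in 54.2% of genes tested, and 11.4% changed their strain difference between the treatments (limma, difference of differences, with the mouse left out of the fit). The genes given here were picked with values known. Il12b, which encodes the p40 chain of IL-12 and IL-23, went from no call to 1107 against 230 TPM on average, a change in the strain difference of 2.49 (SE 0.33, adjusted p = 1.7e-05). Ccl5 went from 6.57 against 35.0 TPM to 880 against 719 TPM (change 2.53, adjusted p = 2.5e-07). Ifit1 and Usp18 stayed lower in PWD after LPS (171 against 836 and 76.1 against 301 TPM), by less than before (changes of 1.80 and 2.00). Cxcl10 kept its distance (87.3 against 2103 TPM, change 0.15, adjusted p = 0.78), as did Chil3 (0.701 against 681 TPM, change 0.29, adjusted p = 0.66), although neither p shows that the differences were equal. Tlr3 stood at 0.428 TPM in PWD and 18.7 TPM in C57 after LPS (change -1.68, adjusted p = 5.8e-06). Acat2 of the cholesterol list came together, 5.69 against 5.15 TPM (change -0.93, adjusted p = 0.00032).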

How the data were processed

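The 24 bulk RNA-seq libraries were made from 1 µg of total RNA with a stranded kit, per the labels' protocols. STAR, edgeR and the mm10 build are named in the submitters' processing notes, with no version or role; the annotation behind the table is not stated there. The authors deposited values in TPM, and no counts were used here, so depth and counting error are unknown, and values near 1 TPM carry that limit. Of 55401 lines, 217 shared a symbol with another and were summed by symbol, leaving 55291. Each library sums to 1000000 TPM, and no 2 libraries were identical. Genes at 1 TPM or more in at least 4 of 24 libraries were tested.

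The fit was limma 3.58.1 (R 4.3.3) on log2(TPM + 1), a scale that understates the change of low genes, with 6 group means over 24 libraries (18 residual degrees of freedom), trended robust empirical Bayes, two-sided tests and Benjamini-Hochberg adjustment over 13246 genes. On simulated data with 13246 genes for this comparison it recovered 62% of changes of 0.5, 98% of changes of 1 and 100% of changes of 2 and 3 (log2), with 2.7% of calls false. The simulation changed 50 genes at each size, all above about 5 TPM in C57, with noise drawn independently for each library. It held no replicate pairs and far fewer changed genes than were called here, so these rates may not hold for the real libraries. Coordinates are from GENCODE M21 (mm10), which matched 12977 of the tested symbols; promoter letters are RefSeq's (GRCm38.p6).

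The comparison and the 37 gene lists were chosen with earlier results of these data known. Some genes stood on more than 1 list. Named genes follow a rule: the 15 largest calls each way among genes of 10 TPM or more without overlap, up to 5 called members per list, 14 fixed genes and genes found in 1 strain only. Other members named to complete a list, the family sums and the summing of copies were chosen after the values were seen. Alternatives were another pseudocount, filter, scaling or variance model, fewer libraries, a replicate block, a minimum difference of 1 and leaving out each library. Replicate numbers gave no sign of pairing libraries across the strains, in a check that cannot exclude handling shared by number. A few genes that the rule names are not reported here.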

Additional observations from a re-analysis of the deposited data

Results flagged for a closer look

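In groups of 4 libraries, 1 library lay far from the other 3 for 26 of the genes named. Chance alone flags about 1 group in 20. With 217 genes named in the text, each read in PWD and in C57, the total is near that share. The flags were not spread evenly, and C57 replicate 2 held the most. Among its flags were the interferon-related genes Cxcl10, Ifi203, Ifit3, Irf7, Mx1 and Rsad2, all highest in that library. Such genes are not independent of each other, so the share cannot show that the flags arose by chance. Several flags rest on values near 0. C57 replicate 1 stood apart for Ccr2 (224 TPM beside 192 to 194 TPM) and Il10 (0.0662 TPM beside 0 in the others). C57 replicate 2 stood apart for Cxcl10 (265 TPM beside 146 to 159 TPM), Cxcl3 (833 TPM beside 584 to 602 TPM), Ifi203 (70 TPM beside 55.5 to 56.6 TPM), Ifit3 (55.4 TPM beside 28.7 to 32.7 TPM), Irf7 (52.8 TPM beside 36.7 to 38.9 TPM), Mx1 (116 TPM beside 62.9 to 70.5 TPM), Pycard (178 TPM beside 197 to 201 TPM), Rsad2 (133 TPM beside 66 to 74 TPM), Serpinb9g (0.0998 TPM beside 0 in the others) and Zfp990 (0.0308 TPM beside 0 in the others). C57 replicate 3 stood apart for Stfa1 (1.65 TPM beside 0.625 to 0.722 TPM). C57 replicate 4 stood apart for Gata1 (0.778 TPM beside 0.152 to 0.222 TPM) and Tlr1 (4.8 TPM beside 4.19 to 4.27 TPM). PWD replicate 1 stood apart for Clu (0.0376 TPM beside 0 in the others), Ifnb1 (0.111 TPM beside 0 in the others) and Pecam1 (0.758 TPM beside 1.21 to 1.23 TPM). PWD replicate 2 stood apart for Ccl24 (39.9 TPM beside 67.4 to 71.9 TPM) and Vwf (1.33 TPM beside 0.365 to 0.519 TPM). PWD replicate 3 stood apart for Hist1h4m (4.14 TPM beside 0 in the others) and Tlr9 (4.23 TPM beside 2.95 to 3.03 TPM). PWD replicate 4 stood apart for Cd300ld5 (8.02 TPM beside 6.36 to 6.55 TPM), H2-Q7 (2.45 TPM beside 1.87 to 1.96 TPM), H2ac15 (3.67 TPM beside 0 to 0.358 TPM) and Mvd (76.3 TPM beside 62.1 to 63.8 TPM).

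The strain difference changed between untreated and LPS-treated cells for 8 of 10 genes that were picked with values known, among 1510 genes where it changed (log2, PWD minus C57 after LPS less the same untreated, limma). It moved up for Ifit1 by 1.8 (adjusted p = 6.8e-06), Usp18 by 2.0 (4.3e-07), Ccl5 by 2.53 (2.5e-07), Gbp2b by 2.62 (1.7e-08) and Il12b by 2.49 (1.7e-05). For Tlr3 it was -1.68 (5.8e-06), for Ccl24 -2.03 (0.0006) and for Acat2 -0.93 (0.00032). The strain difference also differed between replicates 1 and 2 and replicates 3 and 4 for 3866 genes at a limma adjusted p under 0.05, while 6074 of the 6126 called genes had the same sign in both pairs, among them all 1797 that differed by 1 or more.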

How the results depend on the processing

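Under 20 other settings and a minimum difference of 1, the calls in all ran from 4574 (a filter of 5 TPM, 9988 genes tested) to 7671 (no filter, 27131 genes tested), besides the 1797 genes left by the minimum (926 higher, 871 lower). With replicates 1 and 2 alone 1724 genes were higher, and with 3 and 4 alone 1982 were lower. The share of calls that were higher was 43.4%, and 26.8% and 64.3% in these pairs; scaling moved it less (49.9% with median-of-ratios scaling, 45.2% with quantile normalization). Leaving out 1 library gave 5553 to 6042 calls, 2256 to 3001 higher and 2860 to 3786 lower. Correlations of deviations gave no sign that replicate numbers pair libraries across the strains (0.00823 to 0.055, own partner best for 1 of 4). They cannot exclude handling shared by number, and Xist split the numbers alike in PWD and C57. The replicate block gave 6093 calls (2648 higher, 3445 lower). Of 4334 values of 217 genes named in the text, 4221 had the same sign and the same side of the threshold, 20 lost the call, 50 gained it and 43 changed sign; 172 genes kept both in all settings that tested them. The genes that changed sign were, but for Ftl1 and Rps26, not called to begin with. Log2 differences that changed sign with replicates 1 and 2 alone were Ccl3 0.01, Ccl9 -0.03, Clec7a -0.03, Cxcl2 -0.04, Il12b 0.03, Irf4 -0.16, Itgax -0.28, Jak1 -0.22, Nfkb1 -0.29, Nlrp3 -0.03, Srebf2 -0.11, Tlr2 -0.16, Xist -0.00 and Zbtb46 -0.25. With 3 and 4 alone they were Cd80 0.16, Cd83 0.28, Ifnar1 0.22, Il10 0.00, Mki67 0.02, Nfe2l2 0.02 and Tyk2 0.14. With median-of-ratios scaling Ifnar1 0.00 changed sign. With quantile normalization it was Ccl3 0.02 and Ifnar1 0.01. With copies summed, a setting added after the values were seen, they were Ftl1 0.02 and Rps26 1.09. With 1 library left out the ranges were -0.27 to 0.02 for Cd83, -0.14 to 0.03 for Ifnar1, -0.03 to 0.00 for Il10, -0.10 to 0.15 for Itgax, -0.06 to 0.12 for Jak1, -0.07 to 0.11 for Nfkb1, -0.05 to 0.08 for Tlr2 and -0.87 to 1.37 for Xist. The cause of these changes was not tested, apart from the summed copies, which add reads by construction. Counts of 5 or fewer members of a list moved by 1 to 3 genes in several of these settings. From TPM alone the depth behind a value is unknown, and values under 1 TPM are the least certain.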
